A study of Homo sapiens with 4 samples.

Results

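The WNT pathway genes described here are 45 genes named by symbol, which fall into 9 ligands, 2 genes of ligand processing, 8 Frizzled receptors, 4 other receptors, 4 genes of receptor turnover, 4 secreted inhibitors, 3 dishevelled genes, 2 dishevelled inhibitors, 4 destruction complex genes and 5 nuclear effectors. They were found among the 16813 genes of the series by matching Entrez identifiers to official symbols. RNA of PC9 cells, an *EGFR*-mutant human lung adenocarcinoma line, was compared with RNA of PC9OR cells, an osimertinib-resistant line derived from PC9, in 2 biological replicates of each line. Osimertinib is a kinase inhibitor of mutant EGFR. The labels give the genotype WT for both lines, the phenotype control for PC9 and osimertinib resistant for PC9OR, and RPMI medium with fetal bovine serum for both. The labels name no drug treatment, and resistance is represented by 1 resistant line, so that what belongs to resistance and what belongs to this line cannot be told apart. P values measure the spread between these 4 libraries.

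WNT ligands are secreted, lipid-modified glycoproteins that bind Frizzled receptors together with LRP5 or LRP6, or with ROR and RYK receptors. In the canonical branch, binding stops a destruction complex of AXIN, APC and GSK3 from marking beta-catenin for degradation, and beta-catenin then joins TCF and LEF factors on target genes. Some of those targets, among them *AXIN2*, *RNF43* and *NKD1*, restrain the pathway in turn, and in lung epithelium WNT signals maintain progenitor cells.

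The expected counts of the libraries summed to between 23201300 and 32204000, and the floor of 3 counts lay at 0.0936 to 0.128 CPM (counts scaled to the library size after TMM normalization). All 6 epithelial markers were above 1 FPKM (counts scaled by transcript length and library size) in every library, with a summed level of 2123 and 2423 FPKM in PC9 and 4699 and 4554 FPKM in PC9OR cells, most of it keratins. *CDH1*, the epithelial cadherin that binds beta-catenin, was at 69.5 and 49.5 FPKM in PC9 and at 22.0 and 20.1 FPKM in PC9OR cells. Markers of the lung lineage named on the labels were absent or near 0, with *NKX2-1*, *NAPSA*, *SFTPB* and *SFTPC* together at 0 to 0.21 FPKM. The 5 fibroblast markers summed to 0.18 to 0.25 FPKM. Of 3 endothelial markers, *VWF* was at 0 to 0.01 FPKM, and the sum of the list was 6.47 and 4.10 FPKM in PC9 and 0.86 and 0.88 FPKM in PC9OR cells, nearly all of it *CDH5*. Of 4 leukocyte markers, *PTPRC* was at 0 to 0.02 FPKM and *CD68* alone was above 1 FPKM in all libraries, so the summed level of the list was 6.38 and 5.12 FPKM in PC9 and 2.75 and 2.49 FPKM in PC9OR cells. The log2 difference between lines fell with transcript length, with a rank correlation of -0.41 across 11093 genes, and so did the difference between PC9 replicates 2 and 1 (-0.47), but not that between the PC9OR replicates (0.00). These genes share their libraries and are no independent replicates, and the main results are therefore also given from a fit that takes out the trends of length and GC content by library, called the fit with offsets.

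Of the 45 WNT pathway genes, 40 were listed in at least 1 library and 37 passed the filter on low counts. *FZD8*, *ROR2*, *NKD2*, *LGR5* and *NOTUM* were listed in no library. *DKK3* (1 count in every library), *TCF7L1* (1 count in PC9OR replicate 1 only) and *WNT3A* (1 and 3 counts in the PC9OR replicates and 0 in PC9) were too low to test. The filter was passed through both lines by 35 genes, through PC9 only by *WNT5B* and through PC9OR only by *RNF43*. A gene tested through 1 line only had to be higher in that line, and both genes are included in the counts below. At an adjusted p under 0.05, 10 of the 37 tested genes (27.0%) were higher in PC9OR, where 15.6% of all 13148 tested genes were, and 9 (24.3%) were lower, where 20.8% of all genes were. Above a 2-fold change there were 4 higher, against a background of 6.13%, and 6 lower, against 11.6%. The median log2 fold change of the 37 genes was -0.08, beside 0.01 over all tested genes. With these offsets, 11 (29.7%) were higher and 8 (21.6%) lower, against 22.1% and 20.1% of all genes, and the medians became 0.09 and 0.05. In both fits the same 9 genes were higher and the same 7 lower.

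The number of calls changed to an uneven degree when 1 library was left out. Without PC9OR replicate 1 the counts became 3 higher and 5 lower, without PC9OR replicate 2 they became 3 and 6, and without PC9 replicate 2 they became 11 and 16. In these fits the lone library of a line is assumed to vary like the other line. The biological coefficient of variation between replicates was 0.24 in PC9 and 0.10 in PC9OR. Fits without a PC9OR replicate therefore took their spread from the more variable PC9 pair alone. How much of a lost call comes from this was not tested. *WNT5B*, *WNT7B*, *WNT9A*, *AXIN2*, *GSK3B*, *TCF7L2*, *SFRP1* and *LGR4* passed the threshold whichever library was left out. The plot of CPM by library shows the 19 called genes, and the plot of fold changes shows all 37 in both fits.

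**Figure D1:**
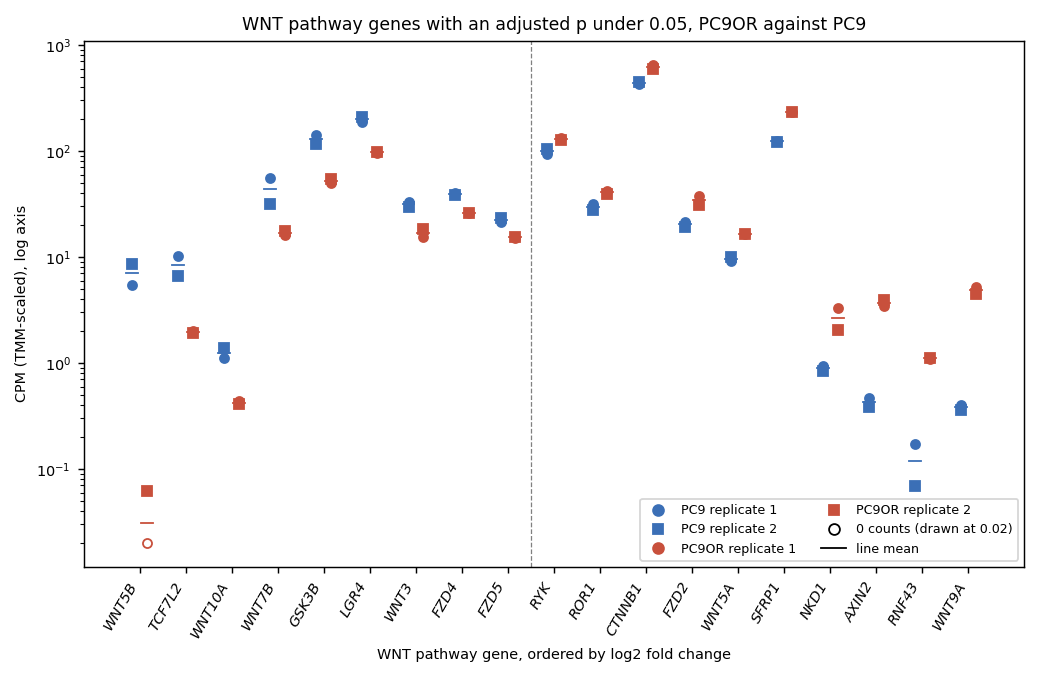
TMM-scaled CPM (log axis) of the 19 WNT pathway genes with an adjusted p under 0.05, ordered by log2 fold change, with a symbol for each of the 4 libraries and a bar at the mean of each line. PC9 (blue) and PC9OR (red) libraries do not overlap for any of these genes, which were selected by their difference in these same libraries. *WNT5B* was at 0 counts in PC9OR replicate 1 (open symbol, drawn at 0.02).

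**Figure D2:**
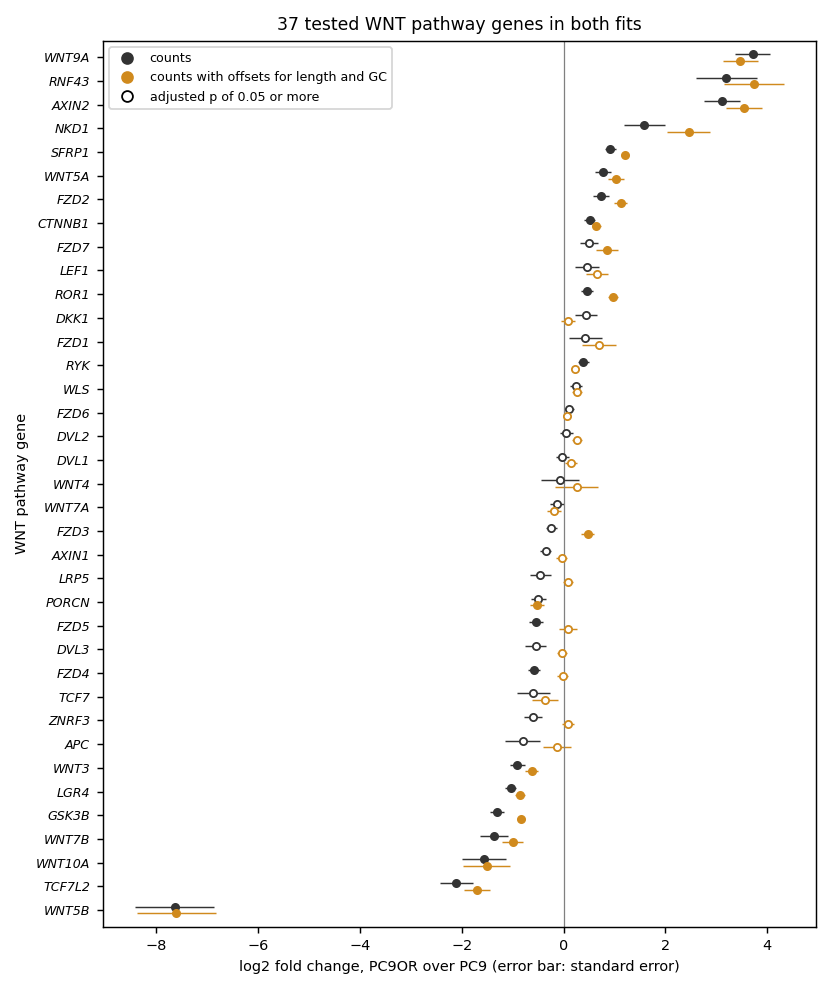
Log2 fold change of PC9OR over PC9, with its standard error, for the 37 tested WNT pathway genes, from counts (black) and with offsets (orange), where open symbols have an adjusted p of 0.05 or more. *WNT9A*, *RNF43*, *AXIN2* and *NKD1* lie above a 2-fold increase in both fits, and *FZD4* and *FZD5* move to near 0 with offsets.

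Among the 8 tested ligands, 2 were higher and 4 lower in PC9OR cells, where 15.6% and 20.8% of all tested genes were. *WNT9A* (Entrez 7483, GRCh37 chr1:228106357-228135633, minus strand) was measured at 0.402 and 0.360 CPM in PC9 and at 5.23 and 4.47 CPM in PC9OR cells, and *WNT5B* (Entrez 81029, chr12:1639057-1756378, plus strand) at 5.50 and 8.63 CPM in PC9 and at 0 and 0.063 CPM in PC9OR cells. The first was low but detected in PC9, and the second was all but lost from PC9OR, where both libraries were under the 3-count floor. Because *WNT5B* passed the filter on low counts through PC9 only, it had to be higher there. *WNT9A* rose 13.2-fold (log2 fold change 3.72 ± 0.34, SE; adjusted p = 0.0053, edgeR's quasi-likelihood test, two-sided), and by 3.48 on the log2 scale with offsets (adjusted p = 0.0024). *WNT5B*, a ligand mostly linked to signalling without beta-catenin, fell, with a log2 fold change of -7.64 ± 0.78 and an adjusted p of 0.0060 that rest on 378 counts in PC9 and 2 in PC9OR cells. Their depth-scaled ratio of PC9 over PC9OR was 231, with a 95% interval of 63.6 to 1918 that covers counting error only. In cultures measured in bulk, fewer cells with a transcript and less of it per cell cannot be told apart. The promoters of both genes, from RefSeq on GRCh38.p14 (250 bases before to 50 after the start), are shown because these were the largest changes in either direction among the 37 tested genes from counts, while with offsets *RNF43* and *AXIN2* rose more than *WNT9A*. That of *WNT9A* lies at chr1:227947883-227948182 on the minus strand, with a GC content of 83.0% and 53 CG dinucleotides where the median of 35116 promoters was 58.7% and 14. The first of 2 *WNT5B* promoters, at chr12:1616806-1617105 on the plus strand, has 51.7% GC and 10 CG. No letters are in capitals, since neither holds the TCF/LEF core described with *DKK1*.
WNT9A: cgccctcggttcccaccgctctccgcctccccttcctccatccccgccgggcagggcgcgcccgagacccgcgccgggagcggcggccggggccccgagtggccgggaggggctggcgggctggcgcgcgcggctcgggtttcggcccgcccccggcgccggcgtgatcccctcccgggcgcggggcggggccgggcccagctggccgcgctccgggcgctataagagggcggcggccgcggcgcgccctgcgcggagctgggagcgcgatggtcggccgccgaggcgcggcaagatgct
WNT5B: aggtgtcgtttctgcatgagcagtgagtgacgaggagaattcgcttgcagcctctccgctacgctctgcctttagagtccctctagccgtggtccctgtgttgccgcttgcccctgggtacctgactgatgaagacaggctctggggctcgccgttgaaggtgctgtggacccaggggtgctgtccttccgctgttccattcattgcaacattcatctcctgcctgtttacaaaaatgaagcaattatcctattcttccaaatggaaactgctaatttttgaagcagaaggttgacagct

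*WNT7B* (Entrez 7477, chr22:46316246-46373042), a canonical ligand of lung epithelium, was at 55.1 and 31.8 CPM in PC9 and at 16.1 and 17.6 CPM in PC9OR cells. The PC9 replicates differed from each other, yet both lay above both PC9OR replicates. It fell by 1.37 on the log2 scale (SE 0.28, adjusted p = 0.0218), and by 1.00 with offsets (adjusted p = 0.0154). *WNT3*, another canonical ligand, was at 33.3 and 29.6 CPM in PC9 and at 15.3 and 18.3 CPM in PC9OR cells, a log2 fold change of -0.90 ± 0.16 (adjusted p = 0.0148). *WNT10A*, known for its part in teeth and skin appendages, was low throughout, at 1.11 and 1.39 CPM against 0.437 and 0.406 CPM. Its log2 fold change was -1.56 ± 0.43 (adjusted p = 0.0439). *WNT5A*, the close relative of *WNT5B* and the standard ligand of ROR receptors, moved the other way, from 9.25 and 9.98 CPM to 16.5 and 16.4 CPM (log2 fold change 0.77 ± 0.16, adjusted p = 0.0215). *WNT7A*, which is often silenced in lung cancer, was at 44.0, 35.8, 37.0 and 35.8 CPM in the 4 libraries in order, and *WNT4* was at 1.36 ± 0.021 CPM (SD, n = 2) in PC9OR and 1.43 ± 0.33 CPM in PC9 cells. Neither passed the test (adjusted p = 0.488 and 0.884). The call of *WNT3* was lost without PC9OR replicate 1 (adjusted p = 0.108), that of *WNT5A* without PC9OR replicate 1 or 2 (0.154 and 0.152), and that of *WNT10A* without any 1 library (0.0572 to 0.316), with no filter on low counts (0.0667) and with DESeq2's Wald test (0.124).

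Scaling by transcript length allows levels of different genes to be set side by side. It does not take out the length trends between libraries, so all shares of summed FPKM are given without offsets. The 19 human WNT ligand genes summed to 42.4 and 33.8 FPKM in PC9 and to 31.9 and 31.0 FPKM in PC9OR cells. The PC9 replicates differed from each other by more than PC9 replicate 2 differed from either PC9OR replicate. *WNT7A* gave 46.1% of the sum in both PC9 libraries and 50.6% and 49.4% in PC9OR. The share of *WNT9A* was 0.61% and 0.65% in PC9 and 10.3% and 8.85% in PC9OR cells, and that of *WNT7B* was 24.2% and 17.1% in PC9 and 9.16% and 10.1% in PC9OR. *WNT3* held 17.1% and 18.6% in PC9 and 10.2% and 12.3% in PC9OR. *WNT6* and *WNT11*, which are not among the 45 genes, were at or below 0.24% in PC9 and reached 5.68% and 5.13%, and 4.52% and 3.91%, in PC9OR cells. The 9 ligands of the list together held 96.5% and 96.8% of the sum in PC9 and 87.4% and 88.2% in PC9OR cells.

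**Figure D3:**
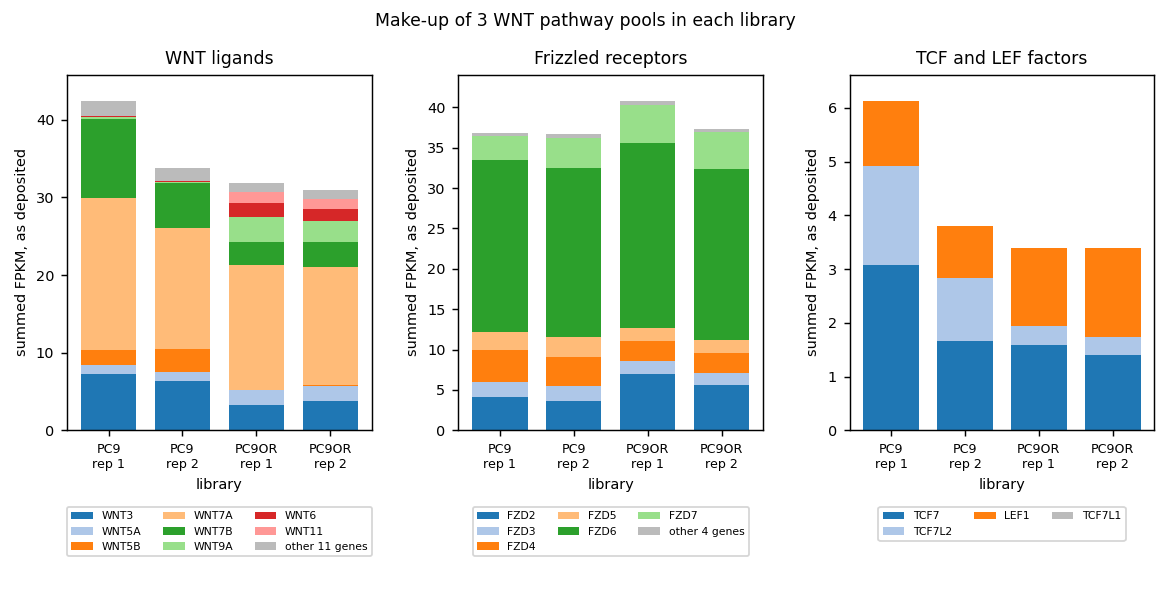
Summed FPKM of the 19 WNT ligand genes, the 10 Frizzled receptors and the 4 TCF and LEF factors in each library, stacked by gene. *WNT9A*, *WNT6* and *WNT11* appear in the PC9OR ligand bars, *FZD6* is the widest band of the receptors in all 4 libraries, and *TCF7L2* is thinner and *LEF1* thicker in the PC9OR bars.

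The 2 genes of ligand processing were both expressed. *PORCN*, the acyltransferase that attaches the lipid to WNT proteins, was at 6.67 ± 0.014 FPKM in PC9 and 4.65 ± 0.15 FPKM in PC9OR cells (SD, n = 2), with an adjusted p of 0.0554 from counts and 0.0318 with offsets (log2 fold change -0.50 and -0.53). *WLS*, the carrier that takes WNT proteins to the cell surface, was at 8.74 ± 0.76 and 10.1 ± 0.11 FPKM, and did not pass the test in either fit (adjusted p = 0.163 and 0.0988).

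Of the 7 tested Frizzled receptors, 1 was higher and 2 were lower from counts, beside 15.6% and 20.8% of all tested genes, and 3 were higher with offsets, beside 22.1%. None passed a 2-fold change from counts. *FZD6*, a receptor linked mainly to planar polarity, held between 56.3% and 57.8% of the summed FPKM of the 10 Frizzled genes in every library, and its log2 fold change was 0.10 ± 0.10 (adjusted p = 0.449). *FZD2*, a receptor of both branches, was at 21.6 and 19.2 CPM in PC9 and at 37.6 and 30.7 CPM in PC9OR cells. It rose by a log2 fold change of 0.75 ± 0.16 (adjusted p = 0.0233), and by 1.12 with offsets (adjusted p = 0.0034). *FZD4*, best known from retinal vessels, was at 39.8 and 38.1 CPM in PC9 and at 26.3 and 25.7 CPM in PC9OR cells. *FZD5*, a receptor for canonical signals in epithelia, was at 21.3 and 23.1 CPM and at 15.3 and 15.3 CPM. The replicates of each line lay close together for both genes and the lines did not overlap. Their log2 fold changes were -0.58 ± 0.11 (adjusted p = 0.0191) and -0.54 ± 0.14 (adjusted p = 0.0364) from counts, and -0.02 (adjusted p = 0.914) and 0.09 (adjusted p = 0.713) with offsets. Both transcripts are long, at 7394 and 6564 bases where the median of all tested genes was 2989 bases. *FZD7* passed with offsets only, at 0.85 (adjusted p = 0.0282; 0.0733 from counts), and *FZD3* was at -0.24 (adjusted p = 0.134) from counts and at 0.48 (adjusted p = 0.0304) with offsets, so that its direction differed between the fits. *FZD1* was the lowest of the tested receptors, at 0.27 ± 0.021 FPKM in PC9 and 0.37 ± 0.028 FPKM in PC9OR cells, and did not pass. The calls of *FZD2* (adjusted p = 0.184 and 0.0595), *FZD4* (0.179 and 0.212) and *FZD5* (0.267 and 0.269) were lost without PC9OR replicate 1 or 2, and that of *FZD5* also with no filter (0.0504) and with limma on FPKM (0.0509 and 0.0631).

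**Figure D4:**
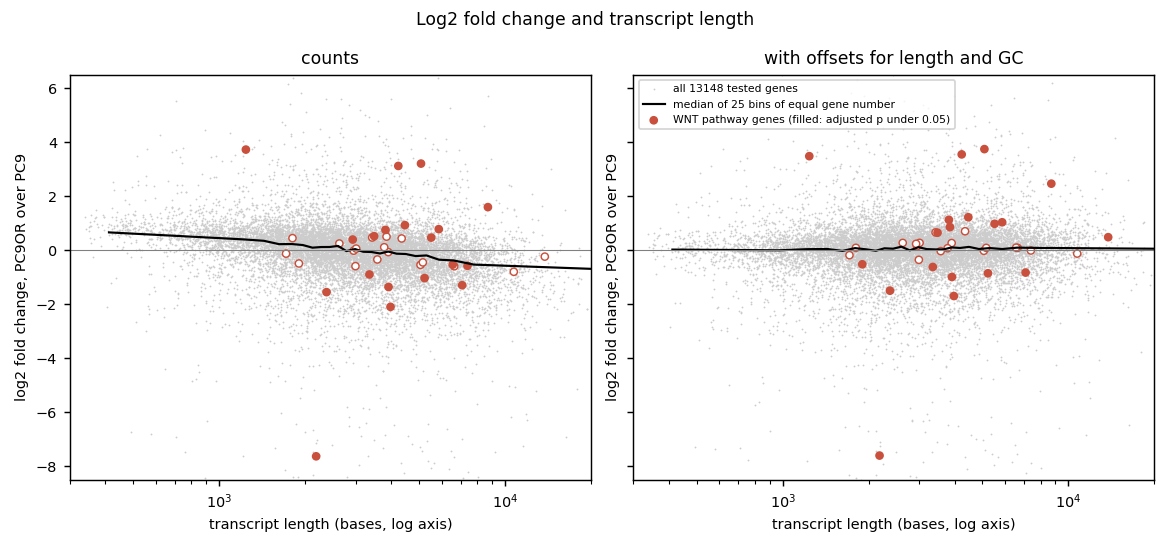
Log2 fold change of PC9OR over PC9 against transcript length (log axis) for all 13148 tested genes (grey), their median in 25 bins of equal gene number (line) and the 37 WNT pathway genes (red, filled where the adjusted p was under 0.05), from counts (left) and with offsets (right). The median falls with length on the left and is flat on the right, and the long *FZD4* and *FZD5* are filled on the left only.

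Of the other receptors, 2 of the 3 tested were higher in PC9OR from counts, beside 15.6% of all tested genes. With offsets 1 was higher, beside 22.1%. *ROR1*, a receptor of WNT5A, was at 31.5 and 27.6 CPM in PC9 and at 41.9 and 39.5 CPM in PC9OR cells, a log2 fold change of 0.46 ± 0.13 (adjusted p = 0.0437) that was 0.97 with offsets (adjusted p = 0.0023). *RYK*, a receptor with a WIF domain, was at 94.0 and 104 CPM and at 133 and 127 CPM. Its log2 fold change was 0.39 ± 0.11 (adjusted p = 0.0478), and 0.23 with offsets, where it no longer passed (adjusted p = 0.0702). *LRP5*, the canonical co-receptor, was at 18.1 ± 5.33 FPKM in PC9 and 12.8 ± 0.31 FPKM in PC9OR cells and did not pass (adjusted p = 0.135). Neither *ROR1* (adjusted p = 0.318 and 0.242) nor *RYK* (0.401 and 0.337) passed without PC9OR replicate 1 or 2. With no filter on low counts both just missed the threshold (adjusted p = 0.0504 for *ROR1* and 0.0591 for *RYK*), and *ROR1* was also lost with limma on log2(FPKM + 1) and log2(FPKM + 0.1), at 0.115 and 0.108.

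Of the genes that set how long receptors stay at the surface, *RNF43* was higher and *LGR4* lower in PC9OR cells. *LGR4* (Entrez 55366, chr11:27387508-27494337), the R-spondin receptor that protects Frizzled proteins from removal, was at 187 and 211 CPM in PC9 and at 96.7 and 97.6 CPM in PC9OR cells. It fell by 1.04 on the log2 scale (SE 0.11, adjusted p = 0.0068), and by 0.86 with offsets (adjusted p = 0.0038). Per length it was the gene of rank 3 among the 45 in PC9, at 27.2 ± 1.86 FPKM, and of rank 8 in PC9OR, at 12.9 ± 0.092 FPKM. *RNF43* (Entrez 54894, chr17:56431037-56494956, minus strand), the ubiquitin ligase that removes Frizzled proteins and is itself a target of the pathway, had 4 and 2 counts in PC9 and 35 and 36 counts in PC9OR cells, or 0.171 and 0.069 against 1.09 and 1.13 CPM. It was near the 3-count floor in PC9 and above it in PC9OR, where it was still a low transcript. Because it passed the filter on low counts through PC9OR only, it had to be higher there. Its log2 fold change was 3.20 ± 0.60 (adjusted p = 0.0178) and 3.74 with offsets (adjusted p = 0.0075), and it no longer passed without PC9OR replicate 1 (adjusted p = 0.0891) or 2 (0.0902), or with limma on log2(FPKM + 1) (0.0769). The isoform-weighted transcript length of *RNF43* was 4625 bases in PC9 and 5543 bases in PC9OR cells, although few reads lie behind the PC9 value. RefSeq on GRCh38.p14 gives 2 starts for the gene that lie 14813 bases apart, and their promoters are shown because the lengths differed between the lines. The upstream one, at chr17:58417485-58417784 on the minus strand, holds 5 CG dinucleotides, and the other, at chr17:58402672-58402971, holds 0. Which start was used was not measured. *ZNRF3*, the related ligase, was at 2.56 ± 0.52 FPKM in PC9 and 1.66 ± 0.18 FPKM in PC9OR cells and did not pass in either fit (adjusted p = 0.0551 and 0.597), while it passed with DESeq2's Wald test (0.0366) and without PC9 replicate 2 (0.0097).
RNF43 upstream start: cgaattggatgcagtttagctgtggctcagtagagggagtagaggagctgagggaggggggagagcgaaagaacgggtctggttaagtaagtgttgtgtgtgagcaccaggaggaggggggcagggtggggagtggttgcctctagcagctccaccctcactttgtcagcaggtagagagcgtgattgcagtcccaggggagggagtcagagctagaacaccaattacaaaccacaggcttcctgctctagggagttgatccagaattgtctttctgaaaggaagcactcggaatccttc
RNF43 other start: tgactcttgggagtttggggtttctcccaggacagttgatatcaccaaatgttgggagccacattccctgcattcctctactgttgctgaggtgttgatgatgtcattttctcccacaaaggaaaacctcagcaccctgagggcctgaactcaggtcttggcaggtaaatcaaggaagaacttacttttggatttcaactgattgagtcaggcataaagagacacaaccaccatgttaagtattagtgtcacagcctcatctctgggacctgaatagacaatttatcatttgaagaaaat

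The secreted inhibitor *SFRP1*, a Frizzled-like protein that binds WNT ligands, was already abundant in PC9, at 125 and 121 CPM, and was at 232 and 235 CPM in PC9OR cells. The replicates of each line lay within a few percent of each other. It rose 1.90-fold (log2 fold change 0.92 ± 0.10, adjusted p = 0.0066), and by 1.22 on the log2 scale with offsets (adjusted p = 0.0011). Per length it stood at rank 6 in PC9, with 19.7 ± 0.70 FPKM, and at rank 3 in PC9OR, with 36.5 ± 0.16 FPKM, behind *CTNNB1* and *DVL1*. *DKK1*, which blocks LRP5 and LRP6 and is a target of canonical signalling, was at 13.9 and 20.0 CPM in PC9 and at 23.9 and 22.1 CPM in PC9OR cells, and did not pass (log2 fold change 0.44, adjusted p = 0.155, and 0.08 with offsets). Its promoter, at chr10:52314031-52314330 on the plus strand of GRCh38.p14, is shown because it was the 1 among 42 promoters of 33 matched WNT pathway genes with the TCF/LEF core, searched as CTTTGAT or CTTTGAA on either strand. The core is in capitals and begins 95 bases before the start. Over all 35116 promoters of the same length, 6.86% hold it, beside 2.38% here, and a match describes letters and not a bound site.
DKK1: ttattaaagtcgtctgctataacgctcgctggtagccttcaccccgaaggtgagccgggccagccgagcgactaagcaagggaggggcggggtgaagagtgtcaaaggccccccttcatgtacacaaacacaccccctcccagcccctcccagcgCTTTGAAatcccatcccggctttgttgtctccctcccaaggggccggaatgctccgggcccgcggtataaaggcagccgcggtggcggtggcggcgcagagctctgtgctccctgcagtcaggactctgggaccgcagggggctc

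*NKD1* (Entrez 85407, chr16:50582307-50683160), which binds dishevelled, dampens the signal and is a common target of it, was at 0.938 and 0.849 CPM in PC9 and at 3.28 and 2.06 CPM in PC9OR cells. The PC9OR replicates were unequal, and both lay above PC9. Its log2 fold change was 1.59 ± 0.40 (adjusted p = 0.0358) and 2.46 with offsets (adjusted p = 0.0092). The call of *NKD1* was lost without any 1 library (adjusted p = 0.0518 to 0.297) and with limma on log2(FPKM + 1), at an adjusted p of 0.113. The dishevelled genes, which relay the signal from Frizzled receptors, were among the most abundant of the pathway. *DVL1* was at 48.9 ± 2.60 FPKM in PC9 and 47.1 ± 4.86 FPKM in PC9OR cells, *DVL2* at 18.0 ± 1.03 and 18.2 ± 2.15 FPKM, and *DVL3* at 12.3 ± 3.49 and 8.21 ± 0.42 FPKM. None of the 3 passed in either fit, with adjusted p values of 0.892, 0.752 and 0.0883 from counts, while *DVL3* passed with DESeq2's Wald test (0.0380) and without PC9 replicate 2 (0.0022).

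In the destruction complex *AXIN2* was higher and *GSK3B* lower in PC9OR cells. *AXIN2* (Entrez 8313, chr17:63524681-63557766), an inducible scaffold of the complex and the most widely used readout of canonical signalling, had 11 and 11 counts in PC9 and 110 and 127 counts in PC9OR cells, or 0.469 and 0.381 against 3.43 and 3.97 CPM. The 2 lines were far apart relative to their replicates. It rose 8.66-fold (log2 fold change 3.11 ± 0.36, adjusted p = 0.0072), and by 3.54 on the log2 scale with offsets (adjusted p = 0.0026). Even so it remained the smaller part of the AXIN transcripts, at 0.60% and 0.48% of the summed FPKM of *AXIN1* and *AXIN2* in PC9 and 5.44% and 6.24% in PC9OR cells. *GSK3B* (Entrez 2932, chr3:119540168-119813841), the kinase that phosphorylates beta-catenin, was at 140 and 117 CPM in PC9 and at 50.4 and 54.1 CPM in PC9OR cells, below both PC9 values. It fell by 1.30 on the log2 scale (SE 0.14, adjusted p = 0.0063), and by 0.83 with offsets (adjusted p = 0.0025), so that its change was below 2-fold in that fit. *AXIN1*, the constitutive scaffold, had a log2 fold change of -0.35 (adjusted p = 0.0574; -0.04 with offsets). With limma it passed on log2(FPKM + 0.1) (adjusted p = 0.0461) and just missed on log2(FPKM + 1) (0.0502). *APC*, a long transcript of 10737 bases, was at 78.9 CPM in PC9 replicate 1 and 39.5 CPM in PC9 replicate 2, against 36.5 and 31.3 CPM in PC9OR cells. Its log2 fold change was -0.80 (adjusted p = 0.117) and -0.13 with offsets (adjusted p = 0.733), and it passed from counts without PC9 replicate 2 (adjusted p = 0.0025) and with DESeq2's Wald test (0.0334).

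*CTNNB1*, which encodes beta-catenin, was the most abundant of the 45 genes per length in both lines, at 91.1 ± 1.63 FPKM in PC9 and 126 ± 10.0 FPKM in PC9OR cells. In CPM it was at 428 and 447 in PC9 and at 652 and 596 in PC9OR cells, a log2 fold change of 0.51 ± 0.11 (adjusted p = 0.0247) that was 0.64 with offsets (adjusted p = 0.0055). Without PC9OR replicate 1 or 2 it did not pass (adjusted p = 0.292 and 0.184). *TCF7L2* (Entrez 6934, chr10:114710006-114927437), a DNA-binding partner of beta-catenin, was at 10.3 and 6.58 CPM in PC9 and at 1.99 and 1.91 CPM in PC9OR cells. Although the PC9 replicates differed, both PC9OR libraries were well below them. It fell by 2.10 on the log2 scale (SE 0.32, adjusted p = 0.0113), and by 1.70 with offsets (adjusted p = 0.0067). *LEF1*, another partner, was at 5.84 and 4.78 CPM in PC9 and at 6.83 and 7.81 CPM in PC9OR cells and did not pass (adjusted p = 0.169 and, with offsets, 0.0573), nor did *TCF7* (log2 fold change -0.60, adjusted p = 0.193). Of the summed FPKM of the 4 TCF and LEF genes, *LEF1* held 19.7% and 25.5% in PC9 and 42.6% and 48.7% in PC9OR cells. The share of *TCF7L2* was 30.2% and 30.8% in PC9 and 10.6% and 9.73% in PC9OR, while *TCF7* held between 41.6% and 50.1% in all libraries. The sum itself was 6.13 and 3.80 FPKM in PC9 and 3.40 and 3.39 FPKM in PC9OR cells.

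A further 74 genes of the pathway were examined as a list beside the 45. Of them 57 were listed and 45 tested, of which 9 (20.0%) were higher in PC9OR and 16 (35.6%) lower, beside 15.6% and 20.8% of all tested genes, with a median log2 fold change of -0.31. With offsets, 15 (33.3%) were higher and 10 (22.2%) lower, beside 22.1% and 20.1% of all tested genes, with a median of 0.12. Without PC9OR replicate 1 or 2, 3 were higher and 5 lower. Among ligands, *WNT11*, a ligand of polarity signalling, had 1 and 2 counts in PC9 and 120 and 103 counts in PC9OR cells, and its depth-scaled ratio of PC9OR over PC9 was 60.7, with a 95% counting interval of 20.5 to 297 (adjusted p = 0.0048). *WNT6* went from 0.213 and 0.104 CPM to 4.12 and 3.69 CPM, a log2 fold change of 4.62 (adjusted p = 0.0061). Its PC9 counts were 5 and 3. Both ligands were near or under the 3-count floor in PC9 and passed the filter on low counts through PC9OR only, so a gene tested this way had to be higher there. *WNT2B* fell by 2.09 on the log2 scale (adjusted p = 0.0252).

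Of the other inhibitors in that list, *TRABD2A*, a protease that cleaves WNT ligands, rose from 0.682 and 0.451 CPM to 3.15 and 3.84 CPM (log2 fold change 2.63, adjusted p = 0.0112), and *KREMEN2*, the partner of DKK proteins, rose by 1.52 (adjusted p = 0.0123). The beta-catenin cofactors *BCL9L* and *BCL9* fell by a log2 fold change of -2.28 and -1.64 (adjusted p = 0.0078 and 0.0238), which with offsets was -1.49 and -0.95 (adjusted p = 0.0023 and 0.0251). The corepressor *TLE2* rose by 1.49 (adjusted p = 0.0377). Among genes of planar cell polarity, *VANGL2* rose by 1.98 (adjusted p = 0.0238), while *CELSR3*, *CELSR2* and *PRICKLE3* fell, with log2 fold changes of -2.27, -1.87 and -1.13 (adjusted p = 0.0082, 0.0117 and 0.0431). With offsets *VANGL2* was at 2.56, *CELSR3* at -1.11 and *CELSR2* at -0.85, where it did not pass (adjusted p = 0.0517). *AMER1*, a membrane-bound partner of APC and AXIN, fell by 1.14 (adjusted p = 0.0109), and by 0.30 with offsets (adjusted p = 0.0491). *LRP6*, the second canonical co-receptor, was at 107 and 86.8 CPM in PC9 and at 62.5 and 69.2 CPM in PC9OR cells. Its log2 fold change was -0.56 (adjusted p = 0.0396) from counts and 0.27 (adjusted p = 0.0430) with offsets, so both fits called it, in opposite directions. Without PC9OR replicate 1 or 2 the calls of *KREMEN2* (adjusted p = 0.0719 and 0.0595), *VANGL2* (0.102 and 0.0970), *WNT2B* (0.140 and 0.0661), *PRICKLE3* (0.0614 and 0.207), *TLE2* (0.0709 and 0.314) and *LRP6* (0.305 and 0.197) were lost, and those of *TLE2* (0.0663) and *PRICKLE3* (0.0764) also without PC9 replicate 1.

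A list of 20 genes known as targets of canonical signalling in other tissues, apart from those among the 45, held none called higher from counts. Of the members described above as targets, *AXIN2*, *RNF43* and *NKD1* were called higher, and *DKK1* was not called (adjusted p = 0.155, edgeR). *FGF18* of that list had a log2 fold change of 1.86 but did not pass (adjusted p = 0.147, edgeR). Its counts were 6 and 1 in PC9 and 15 and 18 in PC9OR cells. It passed the filter on low counts through PC9OR only, so it had to be higher there. Of the 15 listed, 10 were tested, and 0 were higher in PC9OR at an adjusted p under 0.05, where 15.6% of all tested genes were. There were also 0 higher at an unadjusted p under 0.05 and 0 by DESeq2's Wald test. With offsets 1 was higher, *EPHB3* (log2 fold change 1.28, adjusted p = 0.0470), where 22.1% of all tested genes were. At an adjusted p under 0.05, 6 of the 10 were lower from counts, where 20.8% of all tested genes were, and 5 with offsets, where 20.1% were. *SOX9*, a progenitor transcription factor, went from 91.1 and 64.7 CPM to 21.9 and 18.2 CPM (log2 fold change -1.96, adjusted p = 0.0067). *CD44*, a cell adhesion receptor, went from 515 and 465 CPM to 147 and 132 CPM (log2 fold change -1.82, adjusted p = 0.0039). The PC9OR libraries were below the PC9 libraries for both. *FOSL1*, *NRCAM* and *EPHB2* fell, with log2 fold changes of -2.12, -1.80 and -1.01 (adjusted p = 0.0179, 0.0058 and 0.0077). With offsets *EPHB2* was at 0.05 (adjusted p = 0.808), and without PC9OR replicate 2 it did not pass (adjusted p = 0.0624). These genes are also controlled by other pathways, and activity of WNT signalling was not measured.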

How the data were processed

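RNA of 2 PC9 and 2 PC9OR cultures was sequenced from Illumina TruSeq Stranded libraries. For each library the authors deposited, per Entrez gene, an expected count (an estimated number of reads, not normalized), an FPKM value and an isoform-weighted transcript length in bases. The submitters' processing notes name Bowtie2 2.2.5, RSEM 1.2.12 and GRCh37, with no roles given. Each file lists only genes with a count above 0, so an absent gene was given 0. Genes that share sequence with a close relative were counted as the authors' pipeline divided them.

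Official symbols matched 16755 of 16813 Entrez identifiers. The 45 members, the list of 74 other pathway genes, the 20 targets and the tests were chosen with earlier results of these data known. All members are accounted for. Those with an adjusted p under 0.05 are named with their values, and from the other lists those that also passed 2-fold. *LRP6*, *EPHB3* and *FGF18* are named in addition. The lower target *MYC*, under 2-fold, is outside this rule.

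Rounded expected counts entered edgeR 4.0.16 under R 4.3.3 (TMM, filterByExpr, two-sided quasi-likelihood test), with Benjamini-Hochberg adjustment over all 13148 tested genes. The samples were treated as unpaired. The method that the paper names for this comparison, DEGseq, was not used, because it pools replicates. Offsets were smooth curves of length and GC content (known for 97.6% of genes) fitted per library (mgcv 1.9.3). The other alternatives were DESeq2 1.42.0 (size factors, Wald test), library totals, limma 3.58.1 on log2(FPKM + 1) and log2(FPKM + 0.1), other filters and thresholds, a replicate block and each library left out. Leaving out libraries under the offsets was added after seeing the data. The tests were tested on simulated data. Counting intervals are exact and cover counting error only. RefSeq promoters matched 33 members, and *AXIN2* and *NKD1* are among the other 12.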

Additional observations from a re-analysis of the deposited data

How the results depend on the processing

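With DESeq2 size factors and with library totals, 10 members were higher and 9 lower, and DESeq2's Wald test gave 10 and 11. At the study's threshold of more than 2-fold and an adjusted p under 0.001, edgeR called 0 of all 13148 tested genes. So 0 members, 0 of the other pathway genes and 0 targets were called in either direction. At that threshold the Wald test called 2 members higher and 5 lower. It called 4 of the other pathway genes higher and 5 lower, and 0 targets higher and 5 lower. At more than 2-fold and an unadjusted p under 0.05, 4 members were higher and 6 lower. Of the other pathway genes 7 were higher and 7 lower at that threshold, and of the targets 0 and 5. Shares over all tested genes were not computed for DESeq2, library totals or the unadjusted p. More than 2-fold at an adjusted p under 0.05 in edgeR left 4 members higher and 6 lower, beside 6.13% and 11.6% of all tested genes. It left 6 other pathway genes higher and 7 lower, and 0 targets higher and 5 lower.

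Under length and GC offsets the median of the members was 0.089, with length alone 0.10, and with length and the replicate block 0.12. With both offsets, 15 of the other pathway genes were higher and 10 lower, and 1 target was higher. Among named genes with a call in either fit, directions turned for *FZD3* (0.78 with length, 0.48 with length and GC content, 0.79 with length and block), *FZD5* (0.089), *EPHB2* (0.053) and *LRP6* (0.24 with length, 0.27 with both, 0.24 with length and block). Of the named genes called in neither fit, *ZNRF3* (0.083), *LRP5* (0.081), *WNT4* (0.26) and *DVL1* (0.14) turned with both offsets. Other pathway genes outside the naming rule that turned with a call in 1 fit were *TNKS* (-0.68 to 0.076), *VANGL1* (-0.18 to 0.65) and *CSNK1G1* (-0.34 to 0.30).

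When 1 library was left out, 3 to 11 members were higher and 5 to 16 lower (6 to 13 and 4 to 9 with offsets), with a median of -0.11 to -0.00 (0.088, 0.15, 0.18 and 0.19 with offsets). Of the other pathway genes 3 to 11 were higher and 5 to 21 lower (8 to 18 and 3 to 11), and of the targets 0 to 1 were higher and 4 to 7 lower (4 to 6 lower). Under the offsets with 1 library left out, directions turned for *FZD3* (0.60), *FZD4* (0.046 and 0.026), *FZD5* (0.28, 0.11 and 0.082), *DVL1* (0.28), *EPHB2* (0.27 and 0.19) and *LRP6* (0.21, 0.29, 0.30 and 0.29). The cause of these changes was not tested.

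The replicate numbers did not pair the samples, since the deviations of same-numbered libraries had a correlation of 0.055. With the replicate block, 9 members were higher and 11 lower, the calls of *WNT10A* (adjusted p = 0.0881) and *RYK* (0.0598) were lost, and *APC* (0.0157), *DVL3* (0.0325) and *ZNRF3* (0.0282) passed. Differences between values that both lie under the 3-count floor were not detectable at this depth.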

Other observations

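Neighbouring genes were set beside the called members above a 2-fold change, as values only and from counts without offsets. *WNT6*, *LRP6* and *BCL9L*, which are not members, were added. *WNT6* and *WNT10A* are adjacent tested genes on chromosome 2 of GRCh37 (219724528 to 219738955 and 219745574 to 219764303), and their log2 fold changes were 4.62 and -1.56. The 20 tested genes nearest to *WNT9A* had a median log2 fold change of 0.21, those nearest to *AXIN2* -0.13, those nearest to *RNF43* 0.47, those nearest to *GSK3B* 0.11 and those nearest to *TCF7L2* 0.06. For *NKD1* the median of 20 was 0.10, for *WNT10A* 0.11, for *WNT7B* -0.08 and for *LGR4* -0.28. The 17 nearest to *WNT5B*, which lies near the end of chromosome 12, had a median of -0.22. Around *LRP6*, on the same chromosome arm, the median of 20 was -0.99, beside -0.56 for *LRP6* itself, which was at 0.27 with offsets. Around *BCL9L* on chromosome 11 the median was -0.68.

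The TLE family, in which TLE1 to TLE4 are corepressors of TCF and LEF factors and the shorter TLE5 is known as their antagonist, also differed in make-up. *TLE5* gave 44.9% and 52.6% of their summed FPKM in PC9 and 72.1% and 73.0% in PC9OR cells, and *TLE1* gave 33.2% and 31.5% in PC9 and 16.3% and 14.5% in PC9OR. The log2 fold changes were 0.87 for *TLE5* (adjusted p = 0.0086, edgeR) and -0.77 for *TLE1* (adjusted p = 0.0148). With offsets they were 0.77 for *TLE5* (adjusted p = 0.0037) and -0.36 for *TLE1* (adjusted p = 0.0353). Neither passed without PC9OR replicate 1 or 2, where the higher adjusted p was 0.0623 for *TLE5* and 0.159 for *TLE1*. Both genes were chosen after their values were seen.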
